A study of Mus musculus with 6 samples.

Results

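The genes described here mark the layers of the cerebral cortex and the subiculum, and were followed in the hippocampus of mice on a ketogenic diet. They were taken by gene name from the deposited count table and make 9 of its 53715 genes. The deep-layer genes are Etv1, Fezf2, Ctgf, Nxph4, Foxp2, Tle4 and Tbr1, and the upper-layer genes are Rorb and Cux2. All 9 had enough counts to be tested. The 6 libraries come from male C57BL/6J mice aged 2 to 3 months. Of these mice, 3 ate a ketogenic diet, which is high in fat and low in carbohydrate, for 3 weeks and 3 ate a control diet for the same time. Messenger RNA of the hippocampus was sequenced after TruSeq library preparation. The extraction protocol in the labels names retina instead, but of 8 listed retina genes 1 had enough counts to test and Crx was at 0 in every library. The sum of the 8 retina genes was 2.65 to 3.45 CPM on the ketogenic diet and 2.37 to 3.45 CPM on the control diet.

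As background, the neurons of the cerebral cortex lie in layers, and each layer is set up by its own transcription factors. Neurons of the upper layers mostly connect areas of the cortex with each other, while neurons of the deep layers send their axons to the thalamus, the brainstem and the spinal cord. The hippocampus proper has a main layer of pyramidal cells, and the subiculum, its chief output region, lies between the field CA1 and the layered entorhinal cortex. Several deep-layer genes are also expressed in the subiculum, so a dissected hippocampus can hold their transcripts from the subiculum, from adjoining cortex or from hippocampal cells.

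The start sites of some of the genes that rose, and of 1 that did not pass the test, are shown as reference. RefSeq promoters on GRCm38.p6, from 250 bases before to 50 bases after the start, matched 6 of the 9 genes by symbol. Ctgf, Nxph4 and Foxp2 had no match. Etv1, Fezf2 and Cux2 passed the test, and Tbr1 did not. Tle4 and Rorb, which also matched and did not pass, are not printed. Where a gene has more than 1 entry, the first listed is printed, on the strand of the gene. They lie at chr12:38779832-38780131 (plus strand), chr14:12345816-12346115 (minus strand), chr5:122049802-122050101 (minus strand) and chr2:61804203-61804502 (plus strand), in the order below. Capitals mark matches to the searched motifs.
Etv1: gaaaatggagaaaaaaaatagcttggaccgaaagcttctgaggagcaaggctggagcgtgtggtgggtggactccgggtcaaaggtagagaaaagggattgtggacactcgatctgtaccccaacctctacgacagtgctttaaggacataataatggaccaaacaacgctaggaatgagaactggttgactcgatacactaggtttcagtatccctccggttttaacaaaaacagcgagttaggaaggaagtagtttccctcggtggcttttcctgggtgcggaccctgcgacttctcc
Fezf2: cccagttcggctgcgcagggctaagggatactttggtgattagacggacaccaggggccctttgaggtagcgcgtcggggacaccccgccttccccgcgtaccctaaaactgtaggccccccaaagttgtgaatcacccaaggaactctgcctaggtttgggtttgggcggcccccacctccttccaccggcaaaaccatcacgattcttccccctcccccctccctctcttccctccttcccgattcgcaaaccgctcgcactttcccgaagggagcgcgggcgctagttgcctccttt
Cux2: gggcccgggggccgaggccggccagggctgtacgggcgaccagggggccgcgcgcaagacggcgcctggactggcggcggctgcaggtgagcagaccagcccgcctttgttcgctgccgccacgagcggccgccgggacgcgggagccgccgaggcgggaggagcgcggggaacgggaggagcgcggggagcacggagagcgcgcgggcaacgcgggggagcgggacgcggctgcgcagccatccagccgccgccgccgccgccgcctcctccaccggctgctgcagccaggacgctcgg
Tbr1: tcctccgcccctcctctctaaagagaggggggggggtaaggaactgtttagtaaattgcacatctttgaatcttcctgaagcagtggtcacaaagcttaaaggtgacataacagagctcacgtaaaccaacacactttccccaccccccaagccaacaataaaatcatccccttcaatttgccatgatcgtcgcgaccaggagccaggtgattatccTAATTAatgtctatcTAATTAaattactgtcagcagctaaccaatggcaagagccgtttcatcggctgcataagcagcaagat
Motifs were searched on both strands. The letters TATAAA stand for the box near which transcription often starts. The homeodomain core is TAATTA. The core bound by ETS factors, the class of Etv1, is CCGGAA. Part of the site bound by T-box factors such as Tbr1 is GGTGTGA. The cyclic AMP response element is TGACGTCA. No motif overlapped another in the printed sequences. TAATTA stood 2 times in the Tbr1 sequence, and 5.29% of all 32851 promoters in the table hold it. None of the 5 motifs was found in the printed Etv1, Fezf2 and Cux2 sequences, while the second entries of Etv1 and Cux2, not printed, each hold TATAAA 1 time. The entries of Tle4 and Rorb, which did not pass the test either, hold none of the 5 motifs. Over all promoters, TATAAA was in 13.6%, CCGGAA in 14.9%, GGTGTGA in 3.98% and TGACGTCA in 1.79%. The printed promoters also differed in base composition, with 80.3% G and C for Cux2, 61.3% for Fezf2, 48.7% for Etv1 and 46.0% for Tbr1, against a median of 52.7% over the table.

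Across all genes, 1593 of 16478 tested genes passed an adjusted p of 0.05 in edgeR's quasi-likelihood test, which is 9.67%, with 5.05% higher and 4.62% lower on the ketogenic diet. The ketogenic libraries lay wholly above the control libraries in 14% of the tested genes, and the diets did not overlap, in either direction, in 27.6%. Total counts per library were 16832240 to 18357792, so that 1 count is worth 0.0539 to 0.0605 CPM. CPM here is the count scaled to a common library size after TMM. Each change is the log2 ratio of the ketogenic to the control diet, followed by its standard error, and all adjusted p-values are Benjamini-Hochberg values of that test over the 16478 genes. Control 1 and control 2 stood apart by their choroid plexus transcripts: Ttr was at 58.7, 28.5 and 67.2 CPM in ketogenic 1, 2 and 3 and at 6442, 3373 and 704 CPM in control 1, 2 and 3. Control 3 was also far above every ketogenic library. Values without control 1 and 2 are therefore given as well, but leaving them out lessens this difference and does not remove it. There the lone control 3 is assumed to vary like the others. With fewer libraries a call is harder to reach, so a call lost there need not mean a smaller change. Of the 9 layer genes, 5 passed the test upward and none downward. The median log2 fold change of the 9 was 0.68, and that of all tested genes was -0.0057. The members were chosen with earlier results of these data known. In bulk tissue, fewer cells of a type and less RNA per cell cannot be told apart.

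**Figure D1:**
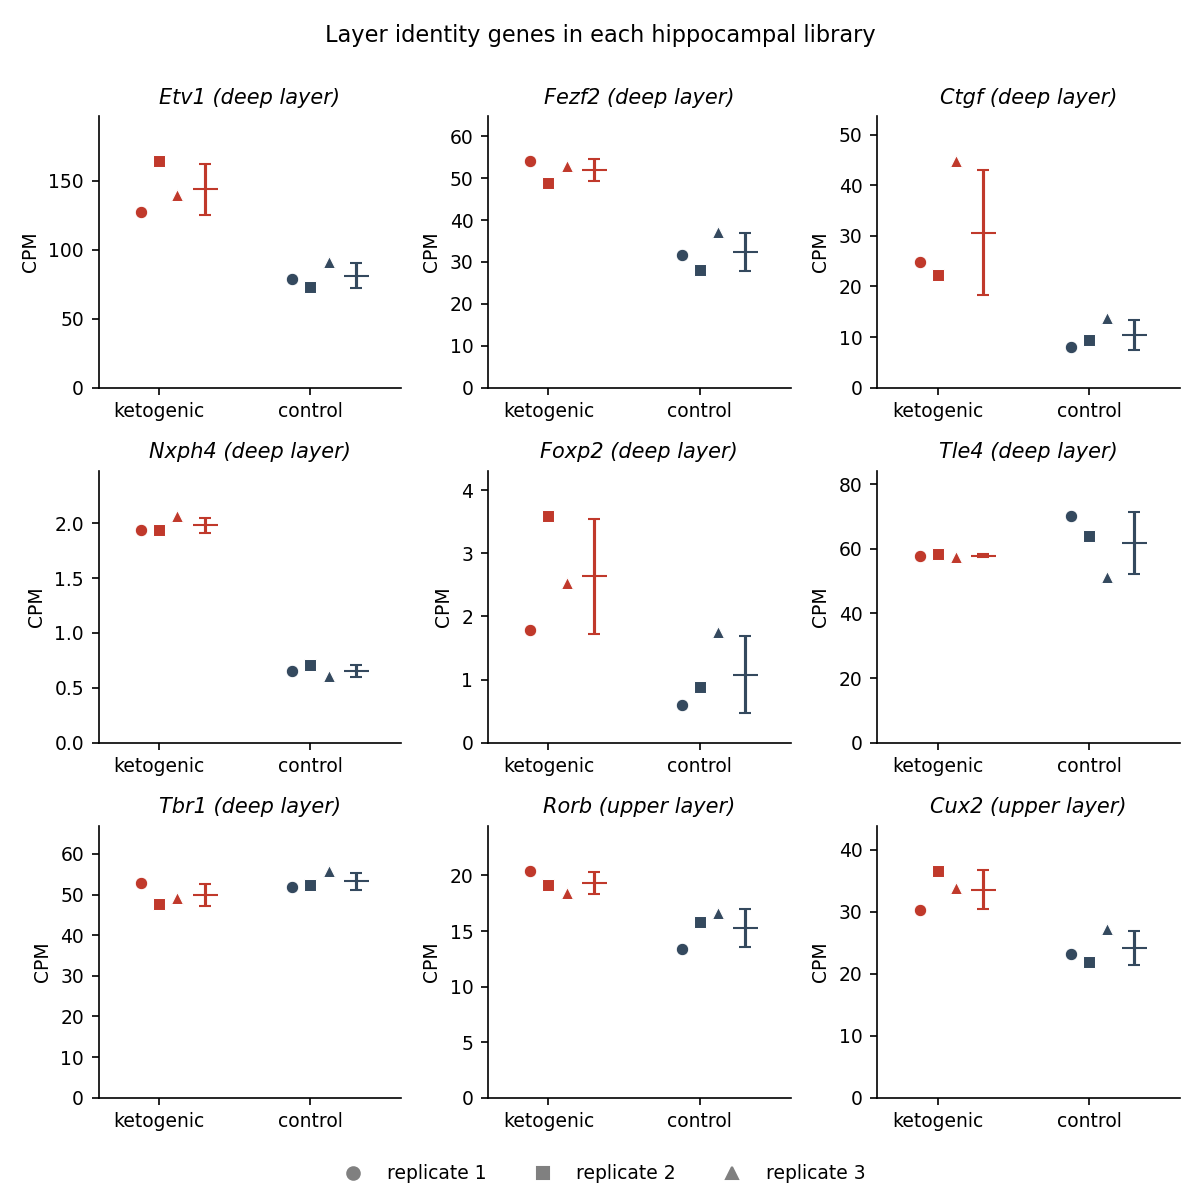
Levels (CPM, linear axes from 0) of the 9 layer genes in the 3 ketogenic and 3 control libraries, with the mean and SD at the right of each diet. The ketogenic libraries lie above all control libraries in 7 panels, and the diets overlap for Tle4 and Tbr1.

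Both members known from the fifth layer rose on the ketogenic diet. Etv1, also called Er81, is an ETS transcription factor of the fifth layer's projection neurons (ENSMUSG00000004151, chromosome 12, 38779380 to 38870484, plus strand). It had 128, 164 and 140.1 CPM in ketogenic 1, 2 and 3, against 79.2, 73.4 and 90.9 CPM in control 1, 2 and 3. Every ketogenic library was above every control library, with a gap between the diets wider than the spread of the control libraries. Etv1 rose by 0.83 ± 0.11 (adjusted p = 0.00187), which is 1.77-fold, with a 95% confidence interval of 0.59 to 1.06. It ranked 104 by p among all tested genes. Fezf2 is a zinc finger factor that directs neurons of the fifth layer to project below the cortex (ENSMUSG00000021743, chromosome 14, 12342094 to 12348189, minus strand). Its levels were 54.0, 48.9 and 52.9 CPM in ketogenic 1, 2 and 3 and 31.8, 28.1 and 37.2 CPM in control 1, 2 and 3. The ketogenic values were close together and the control values were all lower. Fezf2 rose by 0.68 ± 0.10 (adjusted p = 0.00356), which is 1.61-fold, with an interval of 0.45 to 0.92. Both calls held without each single library. Without control 1 and 2 together the log2 fold changes were 0.66 for Etv1 (adjusted p = 0.0513) and 0.48 for Fezf2 (adjusted p = 0.0939).

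The 2 genes of the deepest layer, the remnant of the embryonic subplate, showed the largest fold changes of the 9. Ctgf encodes connective tissue growth factor, a secreted matrix-associated protein that marks this layer in mouse cortex and is also made by fibroblasts and vessels (ENSMUSG00000019997, chromosome 10, 24595442 to 24598683, plus strand). It stood at 24.9, 22.3 and 44.7 CPM in ketogenic 1, 2 and 3, against 8.10, 9.34 and 13.8 CPM in control 1, 2 and 3. Ketogenic 3 was the highest library by a wide margin, and control 3 was the highest of its diet. Ctgf rose by 1.56 ± 0.27 (adjusted p = 0.00665), which is 2.94-fold, with an interval of 0.95 to 2.16. Nxph4 encodes neurexophilin 4, a secreted glycoprotein of a family that binds alpha-neurexins (ENSMUSG00000040258, chromosome 10, 127525473 to 127534559, minus strand). Its counts were low, at 36, 34 and 35 in ketogenic 1, 2 and 3 and 11, 12 and 10 in control 1, 2 and 3, or 1.98 ± 0.0725 and 0.655 ± 0.0521 CPM (SD, n = 3 each). The libraries of each diet were nearly equal, and the diets were far apart. Nxph4 rose by 1.58 ± 0.29 (adjusted p = 0.00845), which is 3.00-fold, with an interval of 0.93 to 2.24. Without ketogenic 3 the change of Ctgf was 1.18 (adjusted p = 0.0125), and without control 1 and 2 it was 1.15 for Ctgf (adjusted p = 0.156) and 1.70 for Nxph4 (adjusted p = 0.130). On log2(FPKM + 0.1) values the call of Ctgf was lost (adjusted p = 0.0668).

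Ctgf is also a gene of fibroblasts, and the fibroblast markers moved in the same direction. Of 8 listed fibroblast and meningeal genes, 7 rose, none fell and none was at 0, a share of 87.5% higher where 5.05% of all genes were. Their sum was 169.0 to 255.9 CPM in ketogenic libraries and 57.1 to 77.6 CPM in control libraries. Dcn, the most abundant of them, which encodes the matrix proteoglycan decorin, had 55.9, 100.5 and 121 CPM in ketogenic 1, 2 and 3 and 11.7, 17.6 and 21.4 CPM in control 1, 2 and 3. Ketogenic 3 and control 3 were the highest libraries of their diets in Ctgf, and also in Dcn, Col1a1 and Col3a1. They were not both the highest in the other fibroblast genes, Lum, Col1a2, Slc6a13, Ogn and Igf2. Slc6a13, for example, had 18.6, 17.5 and 16.6 CPM in ketogenic 1, 2 and 3. The part of fibroblasts in the rise of Ctgf was not tested.

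Of the 3 members of the sixth layer, whose neurons project to the thalamus, none passed the test. Foxp2 encodes a forkhead factor (ENSMUSG00000029563, chromosome 6, 14901349 to 15441977, plus strand) and was scarce, with 33, 63 and 43 counts in ketogenic 1, 2 and 3 and 10, 15 and 29 counts in control 1, 2 and 3. In CPM, ketogenic 1 with 1.78 lay just above control 3 with 1.75, so the diets barely separated. Its log2 fold change was 1.28 ± 0.41 (adjusted p = 0.0822), with an interval of 0.37 to 2.20. The gene passed the threshold with DESeq2 (adjusted p = 0.0488), without a filter on low counts (adjusted p = 0.00435) and without control 3 (adjusted p = 0.0203). Tle4, a Groucho-type corepressor (ENSMUSG00000024642, chromosome 19, 14448072 to 14598051, minus strand), had 57.9, 58.2 and 57.4 CPM in ketogenic 1, 2 and 3 and 70.0, 63.9 and 51.3 CPM in control 1, 2 and 3. The ketogenic values all fell inside the range of the control values. Its log2 fold change was -0.094 ± 0.10 (adjusted p = 0.658), with an interval of -0.33 to 0.14. Tbr1, a T-box factor that in mouse represses Fezf2 in the sixth layer (ENSMUSG00000035033, chromosome 2, 61802930 to 61814114, plus strand), had 52.9, 47.7 and 49.2 CPM in ketogenic 1, 2 and 3 and 51.8, 52.4 and 55.7 CPM in control 1, 2 and 3. The diets overlapped, with ketogenic 1 above control 1 and control 2. The log2 fold change of Tbr1 was -0.093 ± 0.075 (adjusted p = 0.521), with an interval of -0.26 to 0.073. The upper limits of the intervals of Tle4 and Tbr1 lay below the lower limits of those of Etv1, Fezf2, Ctgf and Nxph4. The deep-layer genes thus did not share 1 change, with 4 of 7 higher and 3 not past the test.

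Of the 2 upper-layer members, Cux2 passed the test upward and Rorb did not pass. Cux2 is a cut-type homeodomain factor of the upper layers (ENSMUSG00000042589, chromosome 5, 121856366 to 122050102, minus strand). It had 30.2, 36.5 and 33.9 CPM in ketogenic 1, 2 and 3, against 23.2, 21.9 and 27.2 CPM in control 1, 2 and 3. The diets did not overlap. Cux2 rose by 0.48 ± 0.11 (adjusted p = 0.0250), which is 1.39-fold, with an interval of 0.23 to 0.73. This call was lost without control 1, control 2, ketogenic 2 or ketogenic 3 (adjusted p = 0.0699, 0.113, 0.131 and 0.0730 in that order), and it was 0.30 without control 1 and 2 together (adjusted p = 0.413). Rorb encodes an orphan nuclear receptor of the fourth layer, which takes up thalamic input, and is also expressed in thalamus (ENSMUSG00000036192, chromosome 19, 18930605 to 19111196, minus strand). Its levels were 20.4, 19.1 and 18.5 CPM in ketogenic 1, 2 and 3 and 13.4, 15.8 and 16.6 CPM in control 1, 2 and 3. All ketogenic values were above the control values, by a small margin over control 3. The log2 fold change of Rorb was 0.34 ± 0.12, with an interval of 0.077 to 0.60, and it missed the threshold (adjusted p = 0.108) there and in each of 16 alternatives.

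**Figure D2:**
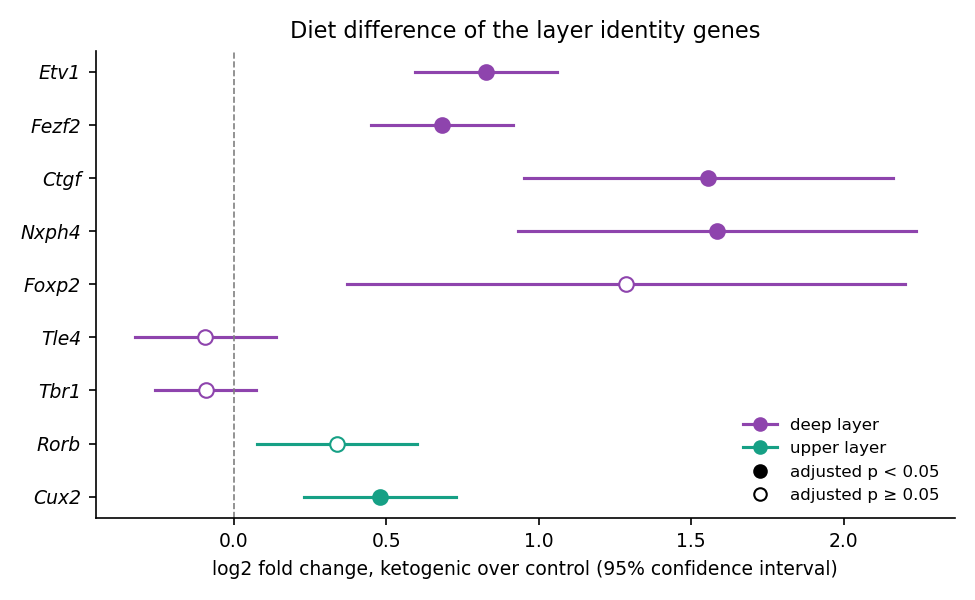
Log2 fold changes, ketogenic over control, of the 7 deep-layer and 2 upper-layer genes with 95% confidence intervals. Filled points passed an adjusted p of 0.05: Etv1, Fezf2, Ctgf and Nxph4 among deep-layer genes and Cux2 among upper-layer genes.

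Set side by side, the deep-layer members had a median log2 fold change of 0.83, from -0.094 to 1.58, and the upper-layer members of 0.41, from 0.34 to 0.48. The difference of the medians was 0.42. As a description by library, the mean log2 CPM of the deep-layer members, each centred on its own mean over the 6 libraries, was 0.25, 0.36 and 0.44 in ketogenic 1, 2 and 3 and -0.45, -0.42 and -0.19 in control 1, 2 and 3. The same mean over the upper-layer members was 0.17, 0.26 and 0.18 in ketogenic 1, 2 and 3 and -0.31, -0.24 and -0.051 in control 1, 2 and 3. In both groups control 3 was the control library nearest to the ketogenic ones. Deep minus upper within a library, which no scaling of the library can change beyond the small constant added before the logarithm, was 0.086, 0.10 and 0.26 in ketogenic 1, 2 and 3 and -0.13, -0.18 and -0.14 in control 1, 2 and 3. The diets did not overlap in this difference. No p-value is given for it, since the members were chosen with results known and the upper layers have only 2 of them. The deep-layer mean weights its 7 genes alike, so the separation rests in part on Ctgf and Nxph4. These had the largest log2 fold changes, at 1.56 and 1.58. Nxph4 had only 10 to 36 counts a library, and Ctgf is also a gene of fibroblasts. Against the interval of Cux2, those of Ctgf and Nxph4 lay above, those of Etv1, Fezf2 and Foxp2 overlapped, and those of Tle4 and Tbr1 lay below.

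Levels per gene length, in the deposited FPKM, placed the members over a range from Fezf2 to Foxp2. In ketogenic libraries the order was Fezf2 at 16.9 ± 0.891, Tle4 at 12.4 ± 0.0711, Etv1 at 10.8 ± 1.39, Ctgf at 10.6 ± 4.29, Tbr1 at 9.04 ± 0.483, Cux2 at 3.31 ± 0.312, Rorb at 1.73 ± 0.0849, Nxph4 at 1.17 ± 0.0454 and Foxp2 at 0.160 ± 0.0550 FPKM (SD, n = 3). The libraries of Etv1 and Ctgf overlapped, as did those of Ctgf and Tbr1, and no other neighbours in this order did. In control libraries the order was Tle4 at 13.2 ± 2.04, Fezf2 at 10.5 ± 1.5, Tbr1 at 9.64 ± 0.396, Etv1 at 6.06 ± 0.676, Ctgf at 3.61 ± 1.04, Cux2 at 2.37 ± 0.274, Rorb at 1.37 ± 0.153, Nxph4 at 0.388 ± 0.0303 and Foxp2 at 0.0655 ± 0.0368 FPKM (SD, n = 3). There Tle4 overlapped Fezf2 and Fezf2 overlapped Tbr1. Fezf2 and Etv1 were thus above Tbr1 in mean level on the ketogenic diet, and Etv1 was below it on the control diet.

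Likeness between genes was measured as the root mean square difference of log2 CPM, centred on each gene's mean, over the 6 libraries, among genes with a mean of at least 1 CPM. All such likeness includes the split by diet, and 6 points say little of shared behaviour beyond it. The nearest member to Etv1 was Fezf2, at 0.17, the 124th nearest of 15128 genes, and the nearest to Fezf2 was Cux2, at 0.16. Nxph4 was the nearest member to Ctgf, at 0.42 and rank 177, while Etv1 was the nearest to Nxph4, at 0.22 and rank 127. Tle4 and Tbr1 were each other's nearest members, at 0.17, but ranked only 4937 and 8041. The genes closest to Ctgf were Itih2 at 0.14, Foxc2 at 0.15 and Fgfbp1 at 0.21, and those closest to Nxph4 were Alk at 0.086, Col5a1 at 0.086 and Gabra3 at 0.091.

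Other deep-layer genes, listed from general knowledge but with earlier results of these data known, were more often higher than lower. Their shares are therefore a description only. Of 17 tested, 8 rose and 2 fell, while 7 missed the threshold, a share of 47.1% higher where 5.05% of all genes were, with a median log2 fold change of 0.49 and a mean of 0.29. Crym, which encodes a thyroid hormone binding protein and is the most abundant of the list, had 270.3, 321 and 303 CPM in ketogenic 1, 2 and 3 and 177, 164 and 177 CPM in control 1, 2 and 3, a rise of 0.79 ± 0.073 (adjusted p = 0.000927). Ldb2, a cofactor of LIM domain factors, rose by 1.12 ± 0.14 (adjusted p = 0.00158), with 49.8 ± 2.73 CPM in ketogenic and 22.9 ± 4.88 CPM in control libraries. Both held without control 1 and 2, at 0.75 for Crym (adjusted p = 0.0180) and 0.85 for Ldb2 (adjusted p = 0.0202). Parm1, a membrane mucin gene, rose by 0.71 ± 0.11 (adjusted p = 0.00324), and Syt6, a synaptotagmin of the sixth layer, rose by 1.13 ± 0.19 (adjusted p = 0.00578). Hs3st4, a heparan sulfate sulfotransferase of the same layer and the second most abundant gene of the list, fell by 0.45 in log2 (adjusted p = 0.0293), with 92.2 ± 14.5 CPM in ketogenic and 126 ± 11.9 CPM in control libraries. Sulf1, an extracellular sulfatase gene, had the largest change of the list in either direction and is named here after its values were seen. It had 9.38, 8.31 and 16.9 CPM in ketogenic 1, 2 and 3 and 79.7, 42.0 and 11.9 CPM in control 1, 2 and 3, a fall of 1.95 in log2 (adjusted p = 0.0456). The diets overlapped, and control 1 and 2 stood apart as they did for Ttr. Without these 2 libraries the value was -0.045 (adjusted p = 0.973), and the call was also lost with DESeq2 (adjusted p = 0.0887) and in 5 of 6 omissions of 1 library, all but control 3 (up to 0.190). Among 4 further genes of the deepest layer, picked for naming after their values were seen, Nr4a2 rose by 0.49 ± 0.12 (adjusted p = 0.0276) and Drd1 by 0.84 ± 0.21 (adjusted p = 0.0324). Cplx3 stood at 1.03 ± 0.30 (adjusted p = 0.0604), and at 1.54 when control 3 was left out (adjusted p = 0.00244), and Moxd1 at 0.27 ± 0.19 (adjusted p = 0.461). Some of these calls depended on single libraries. With 1 library left out, Hs3st4 missed the threshold in 4 of 6 cases (ketogenic 2, ketogenic 3, control 2 or control 3, adjusted p up to 0.134). Nr4a2 missed it in 5 of 6, all but control 3 (up to 0.0951), and Drd1 in 5 of 6, all but ketogenic 1 (up to 0.135). Leaving out control 1 and 2 together ended the calls of Hs3st4, Nr4a2 and Drd1 and that of Syt6, which was then at 1.01 (adjusted p = 0.110). Bcl11b was not analysed here, and Trh had too few counts to test.

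Other upper-layer genes, also listed with earlier results known, went both ways. Of 15 tested, 3 rose and 2 fell, while 10 missed the threshold, a share of 20% higher where 5.05% of all genes were, with a median log2 fold change of 0.13. Otof, which encodes otoferlin and in cortex marks neurons of the upper layers, rose by 1.35 ± 0.20 (adjusted p = 0.00324), with 9.54, 13.7 and 14.0 CPM in ketogenic 1, 2 and 3 and 5.92, 3.96 and 4.66 CPM in control 1, 2 and 3. Kitl, the ligand of the receptor Kit, rose by 0.66 ± 0.14 (adjusted p = 0.0182). Mdga1, a cell adhesion gene, fell by 0.45 in log2 (adjusted p = 0.0103). Pou3f3, a POU factor also strong in the hippocampus and the most abundant of the list, fell by 0.36 (adjusted p = 0.0218), and Lhx2 stood at 0.087 ± 0.069 (adjusted p = 0.519). Otof passed in every omission of 1 library. Kitl missed the threshold when ketogenic 2, ketogenic 3 or control 2 was left out (adjusted p = 0.0753, 0.0644 and 0.0742), Mdga1 when ketogenic 2 was (0.0624), and Pou3f3 when ketogenic 2, ketogenic 3 or control 1 was (0.0944, 0.0638 and 0.0659). When control 1 and 2 were both left out, Otof alone of these 4 still passed, at 1.41 (adjusted p = 0.0391). The per-library means of the other upper-layer list were 0.00020, 0.13 and 0.12 in ketogenic 1, 2 and 3 and -0.12, -0.086 and -0.050 in control 1, 2 and 3. Those of the other deep-layer list were 0.086, 0.13 and 0.23 in ketogenic 1, 2 and 3 and -0.055, -0.23 and -0.16 in control 1, 2 and 3. In both lists every ketogenic library was above every control library in these means, by a small margin. The summed CPM of the other upper-layer list overlapped between diets. It was 669, 711 and 700 CPM in ketogenic 1, 2 and 3 and 704, 702 and 725 CPM in control 1, 2 and 3. That of the other deep-layer list did not overlap, at 838 to 908 CPM in ketogenic and 630 to 744 CPM in control libraries. Whether the deep and upper lists differ was not tested.

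**Figure D3:**
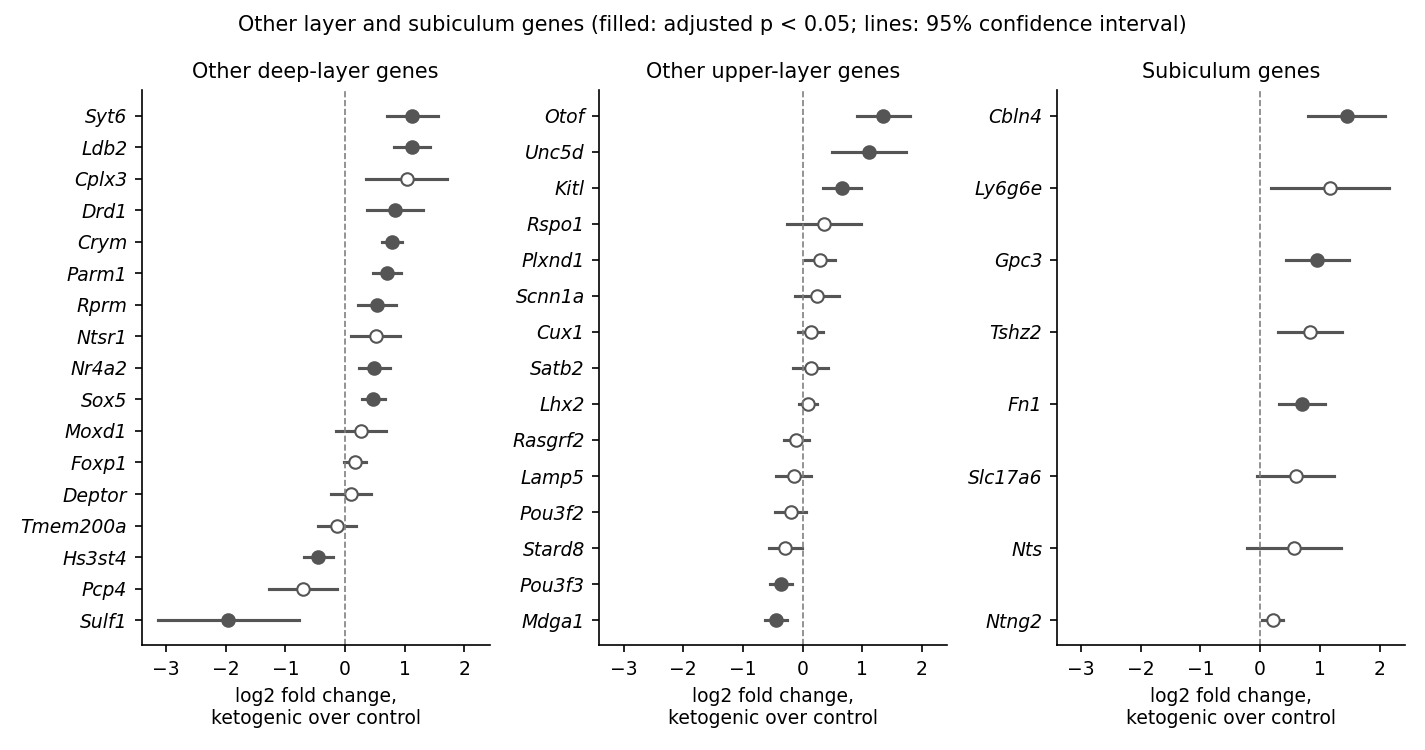
Log2 fold changes, ketogenic over control, with 95% confidence intervals for 17 other deep-layer, 15 other upper-layer and 8 subiculum genes. Filled points passed an adjusted p of 0.05, with 8 higher and 2 lower, 3 higher and 2 lower, and 3 higher and none lower in the 3 lists.

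The tested genes of the subiculum, also listed with earlier results known, all had positive log2 fold changes. Of 8 tested, 3 rose and none fell, while 5 missed the threshold. That is a share of 37.5% higher where 5.05% of all genes were, with a median log2 fold change of 0.77. Cbln4, a secreted synapse organizer, had 7.98, 12.1 and 19.5 CPM in ketogenic 1, 2 and 3 and 4.20, 4.67 and 5.63 CPM in control 1, 2 and 3, a rise of 1.45 ± 0.29 (adjusted p = 0.0125). Fn1, the fibronectin gene, which fibroblasts and vessels also express, rose by 0.71 ± 0.17 (adjusted p = 0.0293), and Gpc3, a glypican, rose by 0.96 ± 0.24 (adjusted p = 0.0322). Ntng2, the most abundant of the list per gene length, stood at 0.21 ± 0.078 (adjusted p = 0.129). Without control 1 and 2, which leaves control 3 alone, the values were 1.23 for Cbln4, 0.34 for Fn1 and 1.21 for Gpc3. Calls are harder to reach there. Single libraries mattered here too: Cbln4 missed the threshold when control 2 was left out (adjusted p = 0.0621), Fn1 in 4 of 6 omissions, all but ketogenic 2 and control 3 (up to 0.124), and Gpc3 in 4 of 6, all but ketogenic 1 and control 2 (up to 0.118). The call of Fn1 was lost with DESeq2 too (adjusted p = 0.0615). With log2(FPKM + 1) as the input, Cbln4, Fn1 and Gpc3 all missed the threshold (adjusted p = 0.0565, 0.0861 and 0.0521). The summed subiculum list was 228 to 266 CPM in ketogenic and 127 to 189.9 CPM in control libraries, and Fn1 alone made 43.2% to 53.6% of it. Without Fn1 the sum was 113, 129 and 124 CPM in ketogenic 1, 2 and 3 and 68.0, 86.8 and 95.7 CPM in control 1, 2 and 3. The diets did not overlap with or without Fn1, and control 3 was the highest of the controls. Teddm3 had too few counts to test.

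**Figure D4:**
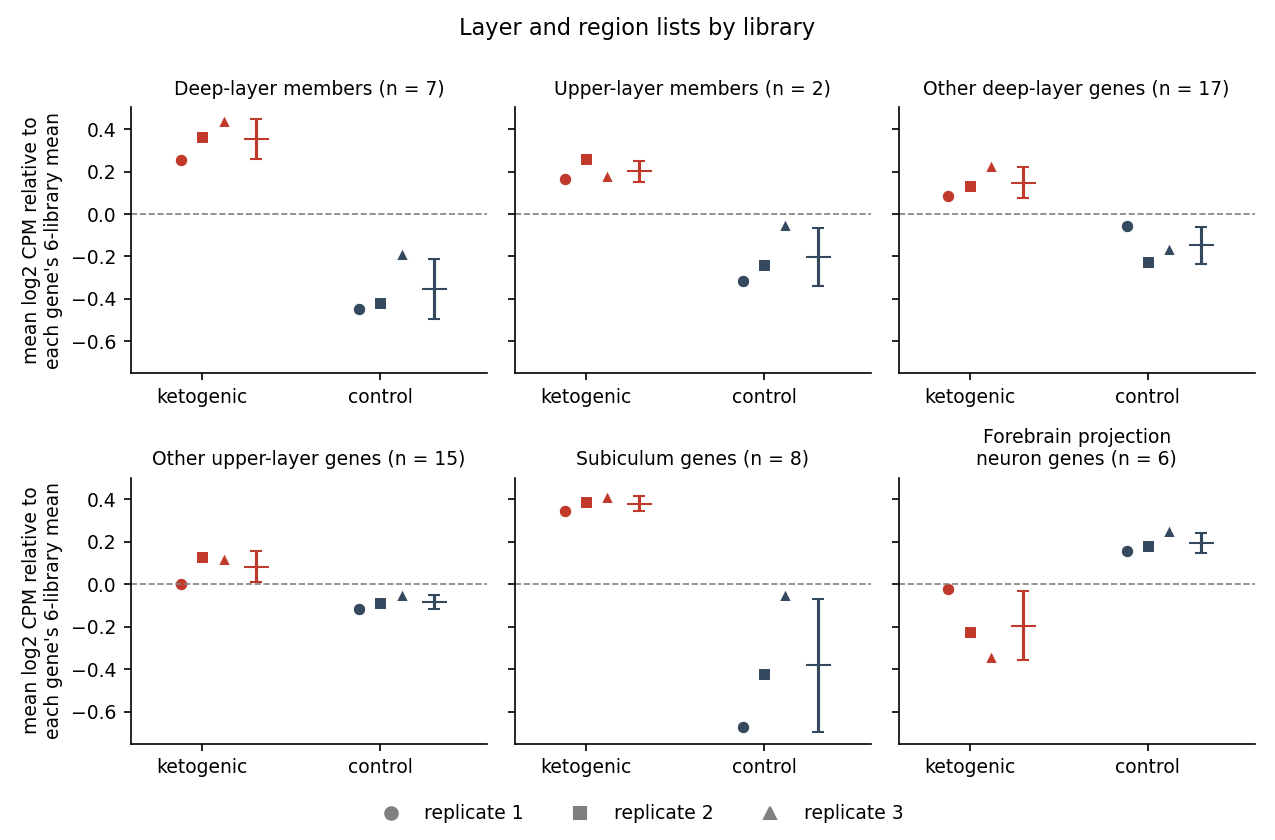
Mean log2 CPM of each list by library, relative to each gene's mean over the 6 libraries, with the mean and SD of the 3 libraries of each diet. Deep-layer members are at 0.25 to 0.44 in ketogenic and -0.45 to -0.19 in control libraries, while genes of forebrain projection neurons are at -0.34 to -0.021 in ketogenic and 0.16 to 0.25 in control libraries.

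General genes of forebrain projection neurons did not rise with the layer genes. Of 6 tested, none rose and 3 fell, where 4.62% of all tested genes fell. The median was -0.37, and all 6 log2 fold changes were negative. Neurod6, a helix-loop-helix factor of these neurons, fell by 0.57 in log2 (adjusted p = 0.00887), Neurod2 by 0.54 (adjusted p = 0.00279) and Slc30a3, the vesicular zinc transporter, by 0.39 (adjusted p = 0.0143). Slc17a7, the vesicular glutamate transporter and most abundant of the list, stood at -0.16 (adjusted p = 0.217). Neurod2 passed in every omission of 1 library, Neurod6 missed when ketogenic 2 was left out (adjusted p = 0.0573), and Slc30a3 when ketogenic 2 or control 2 was (0.0517 and 0.0595). Without control 1 and 2 the values were -0.65 for Neurod2 (adjusted p = 0.0180), -0.64 for Neurod6 (adjusted p = 0.0695) and -0.39 for Slc30a3 (adjusted p = 0.165). The calls of Neurod6 and Slc30a3 were also lost on log2(FPKM + 0.1) values (adjusted p = 0.0779 and 0.0842). Slc17a7 passed when ketogenic 1 was left out, at -0.23 (adjusted p = 0.0435). These lists hold genes that the hippocampal fields also express.

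Markers of hippocampal fields and of other cells differed between the diets in the same libraries, and their part in the changes of the layer genes was not tested. None of the genes in the lists that follow was at 0 in all libraries. Over all tested genes, 5.05% rose and 4.62% fell. Of 8 dentate granule cell genes 5 fell and none rose, with sums of 261 to 421 CPM in ketogenic and 604 to 707 CPM in control libraries. Of 7 CA2 and CA3 genes 4 fell and 1 rose (922 to 1046 against 1234 to 1349 CPM, ketogenic against control), and of 6 CA1 genes 1 fell and 1 rose (563 to 599 against 558 to 683 CPM). The 8 interneuron genes included 6 that rose and none that fell, with sums of 759.9 to 989 CPM in ketogenic and 559.9 to 571 CPM in control libraries. Thalamus and habenula genes summed to only 67.1 to 91.9 CPM in ketogenic and 50.3 to 52.9 CPM in control libraries, and 4 of the 7 tested rose. All 7 log2 fold changes were positive, and Rgs16, the most abundant of them per gene length, rose by 0.78 (adjusted p = 0.0320). Tcf7l2, a factor of thalamic neurons named after its values were seen, had the smallest, at 0.017 (adjusted p = 0.975). Of 5 tested striatal genes 1 rose and 1 fell (58.6 to 64.1 against 66.6 to 114 CPM). The gene that fell, Ppp1r1b, was the most abundant and weighs on this sum. It had 33.1 ± 4.45 CPM in ketogenic and 71.7 ± 25.3 CPM in control libraries (SD). The other 4 striatal log2 fold changes were positive. Centred means of the striatal list, taken as for the layer lists, were 0.061 to 0.37 in ketogenic and -0.37 to -0.11 in control libraries. Of 6 myelin genes 5 fell (2558 to 3491 against 4877 to 6166 CPM), and all 8 choroid plexus genes fell (52.2 to 98.8 against 785 to 7072 CPM, again ketogenic against control).

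**Figure D5:**
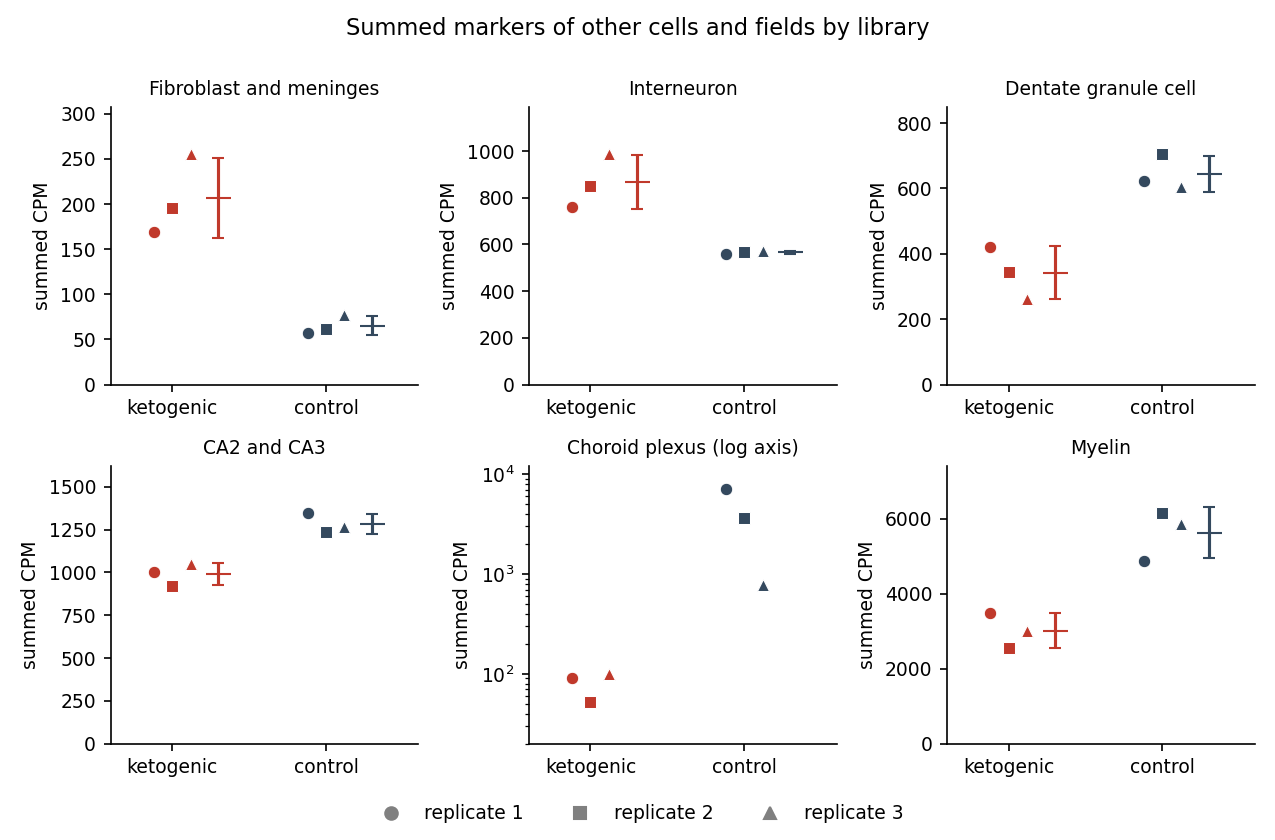
Summed CPM of listed marker genes of other cells and fields in each library, with the mean and SD for each diet except on the log axis of the choroid plexus panel. Fibroblast and interneuron sums are higher in all 3 ketogenic libraries, and dentate, CA2 and CA3, choroid plexus and myelin sums are lower.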

How the data were processed

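The authors deposited 2 tables of the same 6 libraries, one of raw counts by Ensembl gene and one of FPKM values (length-scaled levels). CASAVA, featureCounts 1.5.0-p3, DESeq2 1.10.1 and the build mm9 are named in the submitters' processing notes. No source used here gives the aligner or the strand setting, and reads of overlapping genes could therefore not be told apart. Genes overlapping a member (Ctgf, Foxp2 and Cux2) had at most 7 counts over all libraries. The deposited coordinates equal those of GENCODE M21 on GRCm38 for 97.1% of 53620 shared identifiers and were taken as GRCm38.

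The test used edgeR 4.0.16 under R 4.3.3: filterByExpr, TMM scaling and a quasi-likelihood F-test without covariates. Standard errors are the absolute log2 fold change over the root of F. The labels give 6 mice, so each library is 1 animal, and libraries of 1 diet differed by more than counting noise (chi-square per degree of freedom 6.26 to 18.9). The members, lists and alternatives were chosen with earlier results of these data known. All members are named, and from the deep, upper and subiculum lists up to 4 genes past the threshold by smallest p and the 2 of highest FPKM. Of the cell type lists the most abundant gene is named for some only. Cplx3, Nr4a2, Moxd1, Drd1, Neurod6, Neurod2, Slc30a3, Tcf7l2 and Sulf1 were named after their values were seen. The edgeR step was checked on simulated counts. Alternatives used limma 3.58.1 and DESeq2 1.42.0.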

Additional observations from a re-analysis of the deposited data

How the results depend on the processing

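The 4 deep-layer calls of Etv1, Fezf2, Ctgf and Nxph4 held in every single-library omission, with 4 to 5 deep-layer genes higher, while the upper-layer count ranged from 0 to 1, all genes changed from 538 (without ketogenic 2) to 1877 (without control 3), and the deep minus upper median from 0.35 to 0.48. Without control 1 and 2 together, 289 genes, 0 deep-layer and 0 upper-layer members passed, the median difference was 0.32 and Tle4 was at 0.17 (adjusted p = 0.533). The log2 fold change of Tle4 ran from -0.21 to 0.0056 over single omissions, and that of Tcf7l2 from -0.13 to 0.19. On log2(FPKM + 1) values 936 genes and 0 upper-layer members passed, and on log2(FPKM + 0.1) values 454 and 0, with a median difference of 0.29. The calls of Parm1, Hs3st4, Nr4a2, Kitl, Mdga1 and Pou3f3 were lost there too (adjusted p from 0.0520 for Parm1 to 0.132 for Hs3st4). Without a filter 2462 genes passed, and at an adjusted p of 0.01 587 genes and 0 upper-layer members did. The cause was not tested. With the replicate block 1504 genes, 4 deep-layer and 1 upper-layer member passed. The labels do not say whether the replicate numbers pair the libraries. Same-numbered deviations correlated at -0.0363, 0.0683 and 0.0375, and other-numbered ones at -0.134 to 0.0786. These values cannot decide whether libraries were paired. RLE and upper-quartile scaling, limma-voom and a filter at a mean of 1 CPM changed none of the 9 members' calls. Depth limits Nxph4 and Foxp2, at 10 to 63 counts a library.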
